A study of Mus musculus with 8 samples.

Results

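Histone genes encode the proteins around which DNA is wrapped, and they were taken here as every row of the count table whose symbol starts with Hist1h, Hist2h, Hist3h or Hist4h (clustered, replication-dependent genes) or with H2af, H3f or H1f (variant genes). The rule uses names and no measured value. They were 88 of 39056 rows, 68 of them clustered and 20 variant, of which 3 and 5 are pseudogenes. Because the classes follow names alone, the clustered class also takes in genes such as the testis-specific Hist1h1t. RNA was measured in CD4+ T cells sorted by flow cytometry from spleen and lymph nodes that had been combined. The mice, on the C57BL/6J strain, had been given bone marrow transduced with a retrovirus, and the genotype is CD4-Cre TCRβtg Tcra-/-, that is, with CD4-Cre and a TCRβ transgene and without Tcra. Both groups share that genotype and differ in the TCRα chain that the virus supplied, ANT or SAS, and each is referred to as a clone. The 4 ANT libraries are numbered 1, 3, 4 and 5 and the 4 SAS libraries 1, 2, 3 and 6, and values per library are given in that order. The labels give no age and do not say that each sample came from its own mouse, so a p-value speaks only of the scatter among the 8 samples, which may be technical in part.

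Clustered histone genes are made in bulk when DNA is copied. Their mRNAs mostly lack introns and end, not in a poly(A) tail, but in a conserved stem-loop that is bound by the protein SLBP. Variant genes are transcribed through the whole cell cycle as ordinary mRNAs with a poly(A) tail, and their proteins are placed into chromatin at chosen sites or outside replication. The libraries were made with an mRNA kit, and such kits select RNA by its poly(A) tail, which the replication-dependent message lacks. In such bulk samples, fewer cells with a transcript and less of it per cell cannot be told apart.

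The stem-loop is printed first because it is the known mark of replication-dependent histone mRNA, although the annotated transcripts of only some of the clustered genes hold it. The histone stem-loop motif, 16 bases whose ends can pair around a loop, was searched on the sense strand of the GENCODE M21 transcripts. It is shown with up to 5 bases on each side and the 16 bases in capitals, for 6 clustered genes called below and for the variant gene H2afx.
Hist1h1c: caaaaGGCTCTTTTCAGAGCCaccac
Hist2h2ac: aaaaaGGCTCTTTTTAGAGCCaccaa
Hist3h2a: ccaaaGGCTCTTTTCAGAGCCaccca
Hist1h4m: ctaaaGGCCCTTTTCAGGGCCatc
Hist2h4: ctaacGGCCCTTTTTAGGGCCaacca
Hist4h4: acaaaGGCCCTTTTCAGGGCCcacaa
H2afx: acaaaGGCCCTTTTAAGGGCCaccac
In mm10 the capitals of Hist1h1c lie at chr13:23739512-23739527 (plus strand) and those of Hist2h2ac at chr3:96220418-96220433 (minus strand). Those of Hist3h2a lie at chr11:58955172-58955187 (plus), of Hist1h4m at chr13:21812129-21812144 (plus), of Hist2h4 at chr3:96262939-96262954 (minus) and of Hist4h4 at chr6:136803998-136804013 (minus). That of H2afx is at chr9:44335240-44335255 (plus). Across the annotation, 47 of 55450 genes (0.0848%) held the motif, and 41 of these were histone members: 40 of the 68 clustered genes and H2afx. The capitals of Hist1h1c and Hist3h2a are identical and are those of 24 of the 41. H2afx is known as the variant gene that makes both a stem-loop and a polyadenylated message.

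Over the whole table, library totals were 27600959 to 31810799 counts. edgeR's quasi-likelihood test was run on the 12619 genes that passed its low-count filter and called 37.4% of them at a Benjamini-Hochberg adjusted p under 0.05, 19.8% higher in SAS and 17.7% higher in ANT, with a median log2 fold change of -0.0032 (SAS minus ANT throughout). SAS-higher calls were 52.8% of all calls with TMM scaling and 64.7% with library totals only. ANT replicates 1 and 3 (25.0 and 26.6) lay apart from ANT replicates 4 and 5 (-25.1 and -31.3) on the second principal component (10.6% of the variance). SAS libraries were spread on it too, with replicate 1 at 23.6, replicate 6 at 10.7, replicate 3 at -4.42 and replicate 2 at -25.0. The T cell genes Cd4, Cd3e and Lck were abundant in all 8 libraries. The 10 B cell markers summed to 659 to 702 CPM (counts per 1000000 of the scaled library size) in ANT and 141 to 213 in SAS, nearly all of it Ighm, while Ms4a1, Pax5 and Blk each stayed at or below 0.551 CPM. Of the 6 B cell markers tested, 2 were called higher in ANT and 0 in SAS, while 4 had a positive log2 fold change. The 7 CD8 T and NK cell markers summed to 55.9 to 103 CPM in ANT and 5.42 to 10.2 in SAS, with Ncr1 at 0 in every library. Of the 5 tested, 3 were called higher in ANT and 1 in SAS. The 11 myeloid markers summed to 22.6 to 36.6 and 23.6 to 34.4 CPM, and the 10 erythroid and platelet markers, with Gp9 at 0 in every library, to 5.31 to 18.8 and 4.21 to 10.4. The part of any such cells in the histone values was not tested.

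Of the 88 histone members, 70 had at least 1 count, 56 clustered and 14 variant. The other 18 were at 0 in all 8 libraries, which allows up to 0.0265 CPM in ANT and 0.0247 CPM in SAS (3 counts over each group's libraries, counting error only). They include the testis-specific linker histone Hist1h1t, the oocyte linker histone H1foo, and H2afb1, H2afb2 and H2afb3, which belong to a short H2A family of the testis. The filter passed 30 members, 20 clustered and 10 variant, and 58 were not tested. Because a gene passes where either clone is high, the counts below describe the tested members and not all 88.

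Clustered histone transcripts were lower in SAS than in ANT where a difference passed the test. In that fit 7 of the 20 tested clustered genes were higher in ANT, 0 were higher in SAS and 13 were not called (edgeR, adjusted p under 0.05). That share called, 35.0%, is near the 37.4% over all genes, whereas calls with ANT higher made up 17.7% over all genes. At an unadjusted p under 0.05 there were 9, against 46.5% of all genes. The log2 fold change was negative for 16 of the 20 and its median was -0.68. In every alternative run 0 were called higher in SAS. DESeq2, which tested more low genes, called 9 clustered members higher in ANT (15.7% over all genes). Without ANT replicates 4 and 5 there were 4 such calls (21.3% over all genes), and without ANT replicates 1 and 3 there were 3 (16.8% over all genes). The summed level of all 68 clustered genes was 56.9, 63.4, 60.8 and 69.1 CPM in ANT replicates 1, 3, 4 and 5 and 31.3, 38.1, 47.6 and 32.8 CPM in SAS replicates 1, 2, 3 and 6. Every ANT library was above every SAS library (62.5 ± 5.13 against 37.5 ± 7.37, SD, n = 4), a ratio of 1.67. A few genes carry that sum: Hist1h1c alone held 29.9% of it, Hist1h1c and Hist2h2be 50.1%, and the top 8 genes 77.7%. Without Hist1h1c the sums were 41.4 ± 4.02 and 28.6 ± 2.30 CPM.

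**Figure D1:**
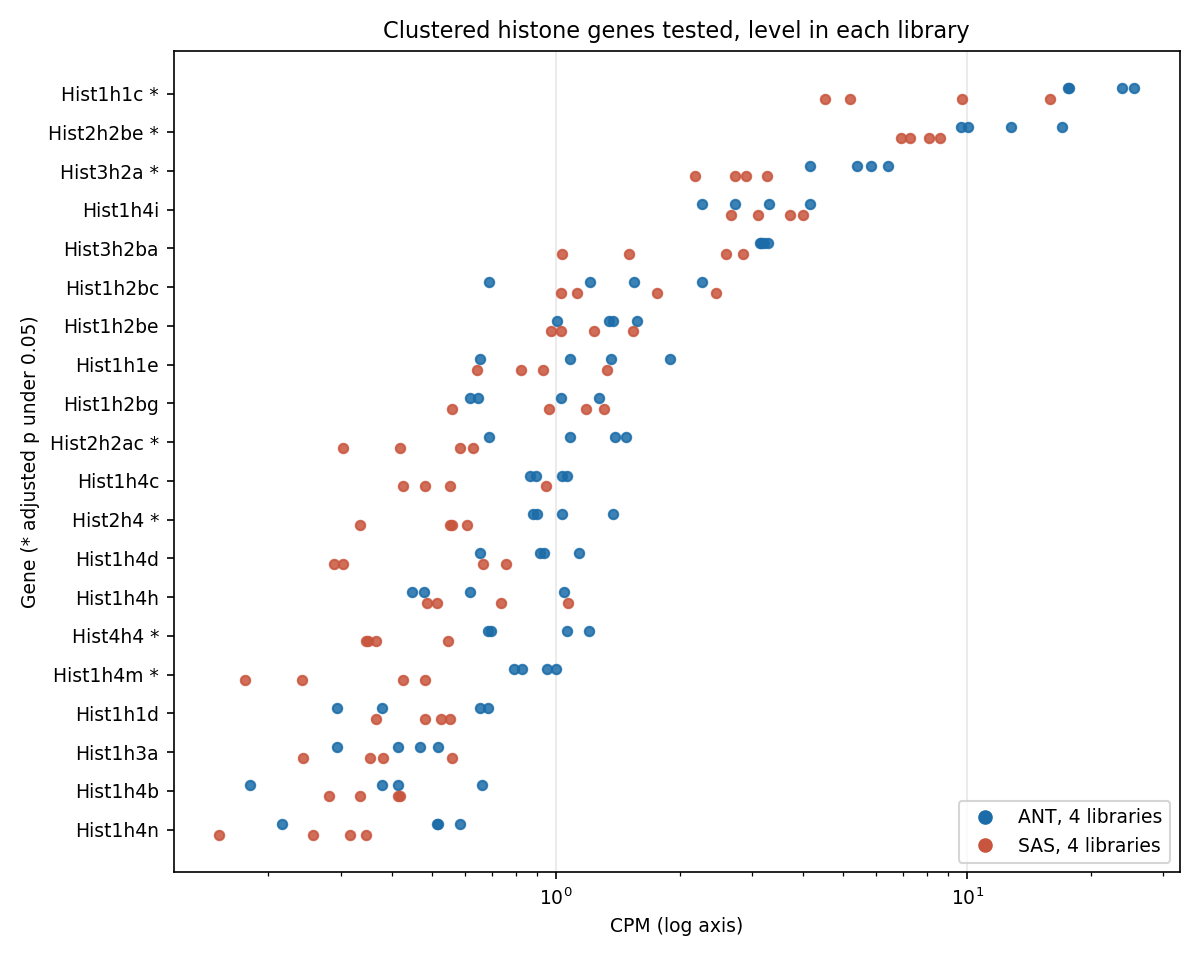
Level in CPM (horizontal log axis) of the 20 tested clustered histone genes (vertical axis, ordered by mean level); each point is 1 library, with the 4 ANT libraries in blue and the 4 SAS libraries in red, and asterisks mark an edgeR adjusted p under 0.05. In the 7 marked genes every ANT library lies above every SAS library, and Hist1h1c in SAS runs from 4.53 to 15.9 CPM.

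Linker histones, the H1 class, sit where DNA enters and leaves the nucleosome. Hist1h1c (ENSMUSG00000036181.2, chromosome 13, 23738808 to 23740367, plus strand), which encodes linker histone H1.2, was the most abundant clustered gene. It stood at 17.7, 17.6, 23.8 and 25.5 CPM in ANT and at 5.2, 9.70, 15.9 and 4.53 CPM in SAS. The groups did not overlap, although SAS replicate 3 came close to the lowest ANT library. The log2 fold change was -1.26 (SE 0.36, edgeR adjusted p 0.0183). The call was lost without ANT replicates 4 and 5 (-1.02, adjusted p 0.149) and without ANT replicates 1 and 3 (-1.49, adjusted p 0.0747). Hist1h1e, which encodes another somatic linker histone, stood at 0.655, 1.36, 1.08 and 1.89 CPM in ANT and at 0.822, 1.33, 0.931 and 0.642 in SAS, overlapping (-0.42, adjusted p 0.396). It shares annotated exons with Hist1h2be on the same strand, so reads of either can be lost or misassigned. Hist1h1d did not pass the test either (-0.07, adjusted p 0.896). Summed over the 6 clustered H1 genes, the level was 23.2 ± 4.66 CPM in ANT and 10.5 ± 5.43 in SAS.

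H2A and H2B pair into the dimers that flank the core of the nucleosome. The 2 tested clustered H2A genes were both called higher in ANT (17.7% over all genes). Hist3h2a (chromosome 11, 58954685 to 58956830, plus strand) stood at 5.41, 4.15, 5.83 and 6.41 CPM in ANT and at 3.26, 2.91, 2.72 and 2.18 CPM in SAS. The 2 groups were apart and the log2 fold change was -0.98 (SE 0.20, edgeR adjusted p 0.0035), the smallest adjusted p among the clustered genes. Its exons overlap those of Trim17 on the same strand, so its count is uncertain. Hist2h2ac (chromosome 3, 96220361 to 96220880, minus strand) stood at 0.689, 1.40, 1.08 and 1.48 CPM in ANT and at 0.304, 0.63, 0.586 and 0.417 CPM in SAS. ANT replicate 1 was lowest of its group and still above every SAS library. The log2 fold change was -1.26 (SE 0.35, adjusted p 0.016), and the call was lost without ANT replicates 4 and 5 (adjusted p 0.0734).

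Among H2B genes, Hist2h2be was called and the other 4 tested were not (37.4% called over all genes, in either direction). Hist2h2be (chromosome 3, 96221119 to 96223738, plus strand), the divergent neighbour of Hist2h2ac, stood at 12.8, 17.0, 9.69 and 10.1 CPM in ANT and at 8.09, 6.90, 7.28 and 8.57 CPM in SAS. The lowest ANT libraries, replicates 4 and 5, lay just above the highest SAS library, replicate 6. The log2 fold change was -0.68 (SE 0.19, edgeR adjusted p 0.0176), and the call was lost without ANT replicates 1 and 3 (adjusted p 0.118). Hist3h2ba, the H2B gene next to Hist3h2a, stood at 3.27, 3.16, 3.13 and 3.20 CPM in ANT and at 1.03, 1.51, 2.59 and 2.86 CPM in SAS. ANT libraries were close together and all above SAS, but the difference did not pass the test (-0.68, SE 0.31, adjusted p 0.109). It was 1 of 8 clustered genes with ANT all higher and 0 with SAS all higher, where 2232 of all 12619 tested genes (17.7%) had ANT all higher. Hist1h2bc stood at 0.689, 1.21, 1.55 and 2.27 CPM in ANT and at 1.13, 2.45, 1.76 and 1.03 CPM in SAS, and Hist1h2be at 1.34, 1.58, 1.01 and 1.38 against 0.974, 1.54, 1.24 and 1.03 CPM. Both overlapped between clones, with adjusted p of 0.80 and 0.679, and so did Hist1h2bg (adjusted p 0.734).

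H3 and H4 form the central tetramer. Of 12 clustered H3 genes 1 was tested, Hist1h3a, whose level was 0.423 ± 0.0959 CPM in the ANT libraries against 0.384 ± 0.131 CPM in the SAS libraries, a log2 difference of -0.15 (edgeR adjusted p 0.768). H4, whose many genes encode the same protein, had 9 tested genes and 3 called, each higher in ANT. That is 33.3%, where 37.4% of all genes were called in either direction and 17.7% higher in ANT. Hist4h4 (chromosome 6, 136801553 to 136804415, minus strand), the lone clustered gene of its locus, stood at 1.21, 0.698, 0.684 and 1.07 CPM in ANT and at 0.365, 0.350, 0.345 and 0.546 CPM in SAS. ANT was higher in each library (-1.18, SE 0.32, edgeR adjusted p 0.0142), and the call was lost without ANT replicates 1 and 3 (adjusted p 0.0672). Hist2h4 (chromosome 3, 96261682 to 96263311, minus strand) stood at 1.03, 0.881, 0.900 and 1.38 CPM in ANT and at 0.335, 0.560, 0.552 and 0.610 CPM in SAS. The groups did not overlap (-1.03, SE 0.29, adjusted p 0.0196). The call was lost in 7 of 19 alternatives, among them those without ANT replicate 5 (adjusted p 0.0583), without SAS replicate 1 (0.0568), without ANT replicates 4 and 5 (0.0898), without ANT replicates 1 and 3 (0.0549) and with no low-count filter (0.0591). Hist1h4m (chromosome 13, 21811746 to 21812147, plus strand) stood at 0.793, 0.955, 0.828 and 0.999 CPM in ANT and at 0.426, 0.175, 0.241 and 0.481 CPM in SAS. That was the most negative log2 fold change of the tested members (-1.41, SE 0.34, adjusted p 0.00879). Only 10.2% of the 50-base words of its transcript occur in no other annotated gene, so its count depends on how reads from near-identical H4 copies were treated, which is not given. Hist1h4i, the most abundant H4 gene, was at 2.72, 4.15, 2.27 and 3.31 CPM in ANT and at 3.71, 2.66, 3.10 and 3.98 CPM in SAS, with the SAS libraries inside the ANT range (0.11, adjusted p 0.737). Hist1h4d (-0.86, adjusted p 0.0984), Hist1h4c (-0.68, 0.106) and Hist1h4n (-0.78, 0.153) had negative values that did not pass the test, and Hist1h4b and Hist1h4h had adjusted p of 0.764 and 0.844.

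**Figure D2:**
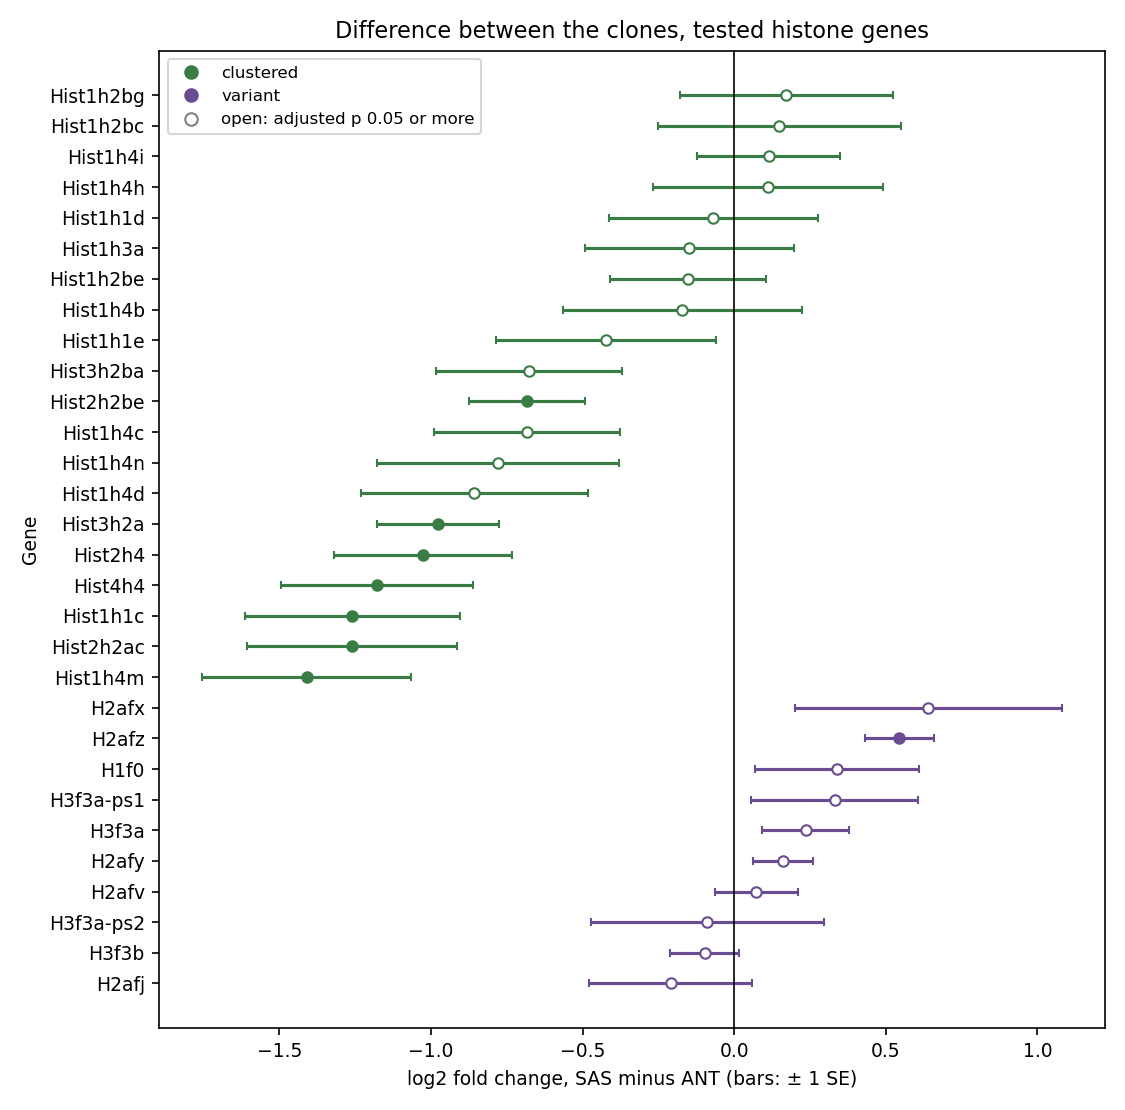
Log2 fold change, SAS minus ANT, of the 30 tested histone genes with its SE (horizontal bars), ordered by value and split into clustered and variant genes; filled points passed an edgeR adjusted p under 0.05. The 7 called clustered genes lie between -1.41 and -0.68, and the 1 called variant gene, H2afz, at 0.54.

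By locus, the 3 tested genes of the Hist2 cluster on chromosome 3 (Hist2h2ac, Hist2h2be and Hist2h4) were all called higher in ANT, against 2 of 14 tested genes of the Hist1 cluster on chromosome 13. Over all genes 17.7% were called higher in ANT, which is near the Hist1 share. The remaining calls were 1 of 2 tested Hist3 genes and Hist4h4. Whether the loci differ was not tested. Several Hist2 genes under the filter were counted more often in ANT, and are named here after their values were seen. Hist2h3b, an H3 gene, had 7, 8, 15 and 10 counts in ANT and 1, 0, 5 and 2 in SAS, and Hist2h2bb, an H2B gene, had 6, 11, 8 and 11 against 3, 2, 2 and 1. Hist2h2ab, an H2A gene, had 4, 4, 3 and 5 counts in ANT and 1, 0, 0 and 1 in SAS. In these 3 genes every ANT library exceeded every SAS library. That held for 17.7% of the genes that passed the filter, and the share was not computed for genes with counts as low as these. With DESeq2 the adjusted p was 0.0176 for Hist2h2bb, 0.0272 for Hist2h3b and 0.0725 for Hist2h2ab, where 15.7% of all genes were called higher in ANT. With edgeR and no low-count filter, Hist2h2bb was the 1 call among the 58 untested members (adjusted p 0.0235), where 9.42% of all genes were called higher in ANT. Hist2h3c2, an H3 gene of the same cluster, had 33 counts in ANT and 25 in SAS. A few Hist1 genes under the filter, also named after their values were seen, were high in SAS replicate 3 alone: Hist1h2ae had 19 counts there and 1 to 4 elsewhere, and Hist1h3e 18 counts there and 2 to 6 elsewhere. Other Hist1 genes under the filter leaned either way, with libraries of the clones overlapping. Hist1h2ab had 0 counts in ANT and 8 in SAS, Hist1h3c 1 and 9, and Hist1h2bj 11 and 23. Going the other way, Hist1h2ac had 31 counts in ANT and 16 in SAS, and Hist1h2ak 21 and 11. In neither of those 2 fits was an untested member called higher in SAS.

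Clustered genes whose annotated transcript runs on past the stem-loop were counted more often. Of the 40 clustered genes with the stem-loop, 20 have an annotated transcript that runs 100 or more bases past it. In this group 12 passed the filter, with a median of 158 counts over the 8 libraries and of 0.267 CPM per kb of exon. In the 20 whose annotation ends within 100 bases of the stem-loop 5 passed, with medians of 8 counts and 0.0710 CPM per kb. In the 28 without a match 3 passed, with medians of 20.5 counts and 0.168 CPM per kb. Some of these, such as Hist1h2bl and Hist2h2ab, are annotated only to the stop codon, so the lack of a match does not show that the gene lacks a stem-loop. Hist1h1c extends 840 bases past its stem-loop, Hist3h2a 1643, Hist2h4 1257 and Hist4h4 2445, whereas Hist2h2ac extends 57 and Hist1h4m 3. Calls higher in ANT occurred in each class: 4 of 12 tested, 2 of 5 tested, and 1 of 3 tested (Hist2h2be, whose M21 transcript holds no match), where 17.7% of all genes were called higher in ANT. These counts are descriptions over genes, with no test.

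**Figure D3:**
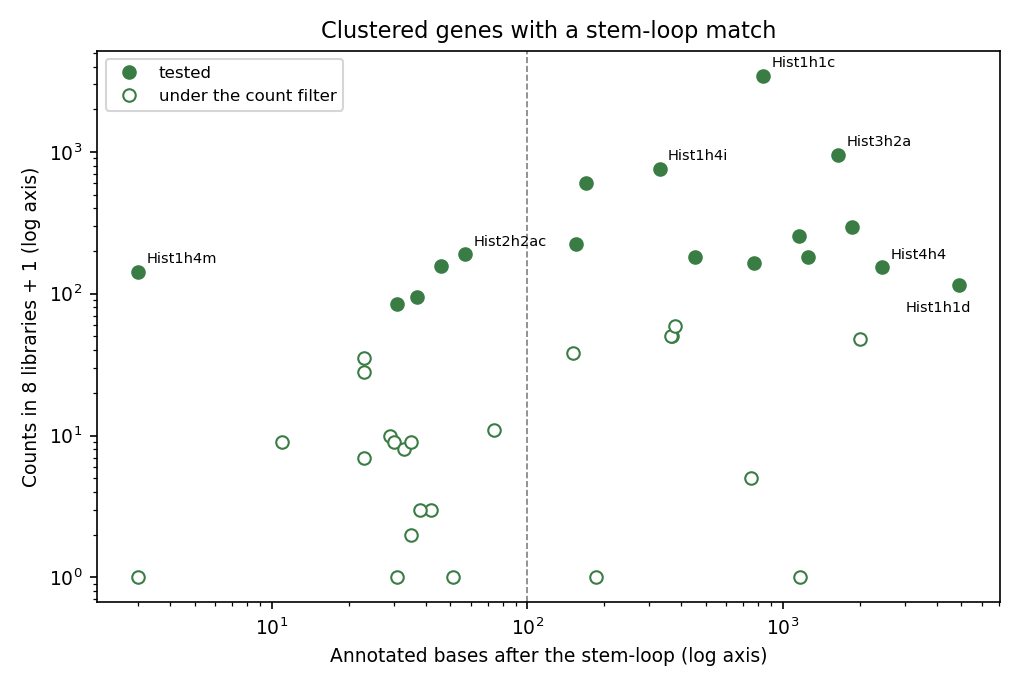
Annotated bases after the stem-loop (horizontal log axis, dashed line at 100) against the counts summed over the 8 libraries plus 1 (vertical log axis) for the 40 clustered genes with the motif; each point is a gene, filled where it passed the low-count filter. To the right of the line 12 of 20 genes are filled, and to the left 5 of 20.

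Variant genes gave most of the histone counts, and H2afz was the 1 variant gene that passed the test, higher in SAS. Their 20 rows summed to 1390 ± 79.2 CPM in ANT and 1474 ± 144 CPM in SAS. Of the 10 tested, 1 was higher in SAS and 0 in ANT (37.4% called over all genes, in either direction), and the median log2 fold change was 0.20. A p above the threshold does not show that the other 9 were equal. Per kb of exon the order of the means over the 8 libraries, pseudogenes left out, was H3f3b 227, H3f3a 81.3, H2afz 73.3, H2afy 37.1, H2afj 17.8, H2afv 17.4, H2afx 11.5 and H1f0 4.46 CPM per kb. The most abundant clustered gene, Hist1h1c, stood at 9.60 CPM per kb. Because mRNA kits select RNA by its poly(A) tail, these levels do not compare the whole message of clustered and variant genes.

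H2A.Z replaces H2A in nucleosomes beside active promoters and enhancers, and 2 genes encode its forms. H2afz (ENSMUSG00000037894.13, chromosome 3, 137864487 to 137866922, plus strand) stood at 116, 101, 107 and 99.4 CPM in ANT and at 166, 156, 170 and 126 CPM in SAS. Each SAS library was above each ANT library, SAS replicate 6 by the least, as for 20.5% of all genes tested. The level was 1.46-fold higher in SAS (log2 fold change 0.54, SE 0.11, edgeR adjusted p 0.00383). It was called in every alternative run except the test against a fold change of 1.5. H2afv, which encodes the other form, stood at 24.7, 27.7, 32.2 and 26.3 CPM in ANT and at 26.4, 27.5, 36.4 and 26.4 CPM in SAS, overlapping (0.07, SE 0.14, adjusted p 0.710).

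H3.3, the H3 variant placed outside replication at active genes, is encoded by H3f3a and H3f3b, which make the same protein from different mRNAs. H3f3b, the most abundant histone gene, stood at 694, 673, 763 and 661 CPM in ANT and at 644, 617, 767 and 582 CPM in SAS. H3f3a stood at 304, 297, 238 and 207 CPM in ANT and at 346, 263, 313 and 311 CPM in SAS. The clones overlapped for both, with log2 fold changes of -0.10 (SE 0.11, adjusted p 0.542) and 0.24 (SE 0.14, adjusted p 0.223). For H3f3a the ANT libraries fell into pairs, replicates 1 and 3 above replicates 4 and 5. Without replicates 1 and 3 it was called higher in SAS (0.47, adjusted p 0.0202), and without 4 and 5 it was at 0.01 (adjusted p 0.937). Its processed pseudogenes stood at 2.58, 1.69, 2.09 and 1.10 against 2.71, 2.10, 2.24 and 2.34 CPM (H3f3a-ps1) and at 0.482, 0.551, 0.540 and 0.379 against 0.517, 0.175, 0.655 and 0.481 CPM (H3f3a-ps2). Neither passed the test (adjusted p 0.378 and 0.879), and 45.7% and 18.0% of their 50-base words are unique, so their reads can belong to the parent gene.

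Other H2A variants overlapped between the clones. H2afy, which encodes macroH2A1 with its large non-histone domain, stood at 223, 222, 266 and 245 CPM in ANT and at 249, 265, 292 and 260 CPM in SAS (0.16, SE 0.10, adjusted p 0.235). H2afx encodes H2A.X, which is phosphorylated at DNA breaks, and stood at 6.48, 6.32, 21.0 and 16 CPM in ANT and at 11, 22.1, 31.6 and 12.9 CPM in SAS. ANT replicates 1 and 3 were below every other library and SAS replicate 3 was highest. The log2 fold change was 0.64 (SE 0.44, edgeR adjusted p 0.285). It was 1.57 (adjusted p 0.0354) without ANT replicates 4 and 5 and 0.06 (adjusted p 0.926) without ANT replicates 1 and 3. H2afj, which encodes H2A.J, stood at 31.5, 32.3, 45.8 and 30.2 CPM in ANT and at 21.5, 27.5, 50.3 and 21.7 CPM in SAS. The highest library of each clone stood apart, and SAS replicate 3 was above all ANT libraries while the other 3 SAS libraries were below them. The log2 fold change was -0.21 (SE 0.27, adjusted p 0.578), and -0.57 (adjusted p 0.0382) without SAS replicate 3. H1f0, the linker histone of resting and differentiated cells, stood at 9.48, 10.1, 6.55 and 6.17 CPM in ANT and at 7.0, 14.3, 12.5 and 7.19 CPM in SAS (0.34, SE 0.27, adjusted p 0.356). For H3f3a, H2afy, H2afj, H2afx and H1f0 an annotated gene overlaps on the opposite strand, and whether strand was used in counting is not given.

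**Figure D4:**
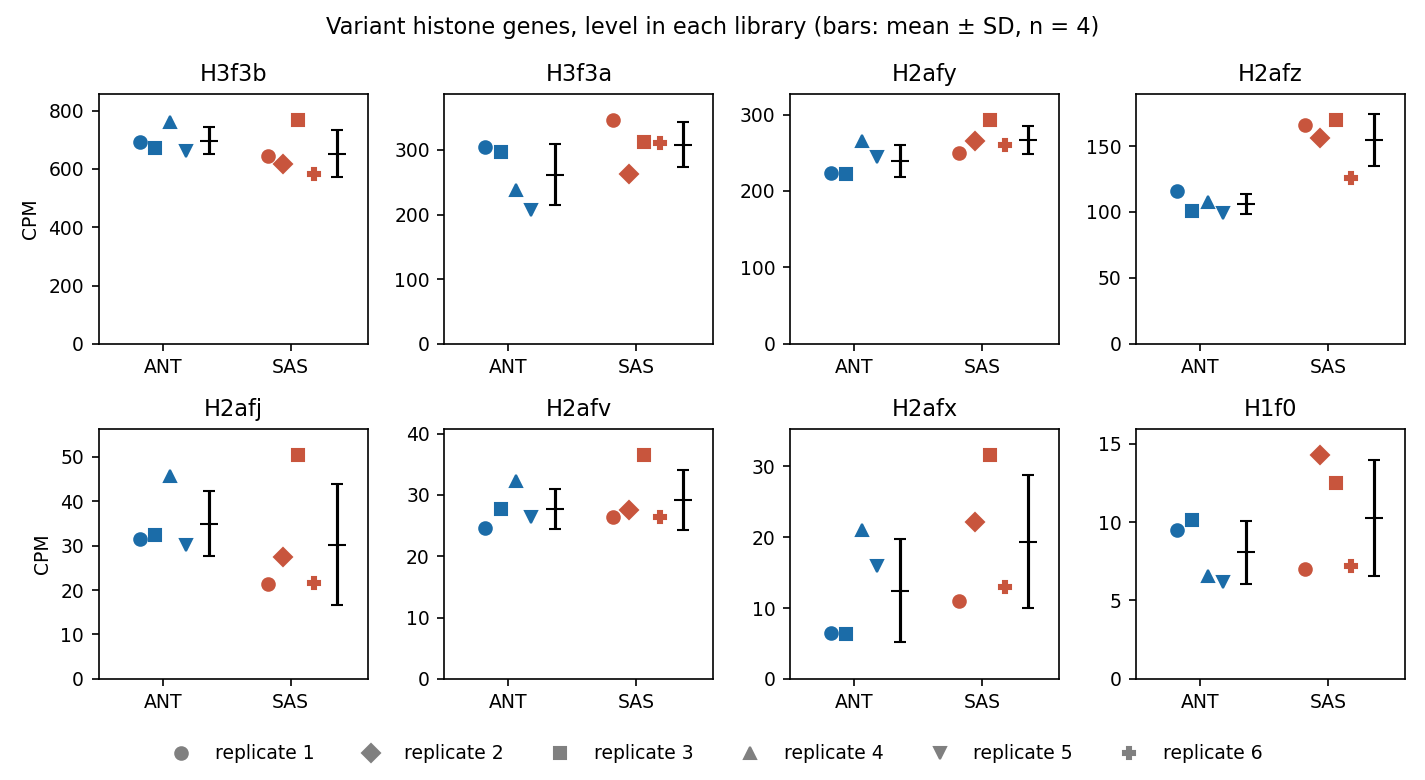
Level in CPM (vertical axes, each from 0) of 8 tested variant histone genes in each library; points are libraries, marker shapes are replicate numbers and bars are the mean ± SD of 4 libraries. H2afz separates the clones (99.4 to 116 CPM in ANT, 126 to 170 in SAS), and in H2afx, H2afj and H2afv the highest SAS point is replicate 3.

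Single libraries recurred among the extremes. Within SAS, replicate 3 was the highest library for 13 of the 30 tested members and for 7 of the 10 variants, and the lowest for 1, and replicate 1 was the lowest for 14. Within ANT, replicate 5 was the highest for 10 of the 20 clustered genes and the lowest for 7 of the 10 variants. Such counts were not made over all tested genes, so they do not show a trait of histone genes in particular. SAS replicate 3 also held the highest Mki67 level (below).

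Promoters were read because both genes of the divergent pair Hist2h2ac and Hist2h2be were called higher in ANT, while H2afz was higher in SAS. The libraries of a clone did not rank alike for the pair. SAS replicate 2, for example, was highest of its clone for Hist2h2ac (0.63 CPM) and lowest for Hist2h2be (6.90 CPM). The RefSeq table (GRCm38.p6) gave 74 promoters for 73 of the 88 members, and the 250 bases before each start were searched on both strands. The motifs were CCAAT (the CCAAT box) and TATAAA (the TATA box), ATTTGCAT (the octamer known from H2B promoters) and TTTNGCGC (an E2F-like motif). Matches are in capitals, those on the other strand as their reverse complement. The Hist2h2ac window is chr3:96220881-96221130 (minus strand) and spans the gap to Hist2h2be. That of Hist1h1c is chr13:23738557-23738806 (plus) and that of H2afz is chr3:137864237-137864486 (plus).
Hist2h2ac: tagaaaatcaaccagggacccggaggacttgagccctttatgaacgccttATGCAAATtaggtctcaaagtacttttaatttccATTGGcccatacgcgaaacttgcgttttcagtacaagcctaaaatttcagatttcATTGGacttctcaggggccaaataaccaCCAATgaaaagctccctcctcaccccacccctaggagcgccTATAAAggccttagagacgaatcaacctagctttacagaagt
Hist1h1c: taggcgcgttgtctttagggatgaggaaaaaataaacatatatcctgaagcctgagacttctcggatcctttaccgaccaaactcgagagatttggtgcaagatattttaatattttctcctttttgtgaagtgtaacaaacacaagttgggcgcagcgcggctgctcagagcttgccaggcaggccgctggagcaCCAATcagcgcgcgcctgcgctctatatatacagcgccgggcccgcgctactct
H2afz: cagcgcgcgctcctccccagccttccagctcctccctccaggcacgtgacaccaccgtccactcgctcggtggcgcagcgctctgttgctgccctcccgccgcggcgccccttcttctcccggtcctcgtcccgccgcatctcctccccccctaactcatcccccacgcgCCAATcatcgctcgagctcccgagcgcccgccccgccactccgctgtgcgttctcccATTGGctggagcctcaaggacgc
The Hist2h2ac window held 3 matches to CCAAT, 1 to TATAAA and 1 to the octamer. Hist1h1c held 1 match to CCAAT and H2afz 2, and neither held a match to the letters of the other motifs. The Hist1h1c window does hold tatatata, which a search for TATAAA misses, so no match does not show that a TATA box is absent. CCAAT was in 49 of 60 clustered promoters (81.7%), 8 of 14 variant promoters and 33.8% of the 32851 promoters in the table. All 6 H1, 17 H2A and 15 H2B promoters among the clustered genes held it, and 3 of 12 H4 promoters did. TATAAA was in 29 clustered promoters (48.3%), 1 variant promoter and 12.4% of all. The octamer was in 13 clustered promoters (21.7%), 7 of them H2A and 6 H2B, in 1 variant promoter (H3f3b) and in 1.6% of all. TTTNGCGC was in 9 clustered promoters (15.0%), 3 H2A and 6 H2B, in 0 variant promoters and in 1.13% of all. These are matches of letters and not known binding sites, and divergent gene pairs share part of their windows.

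Genes that transcribe and process histone mRNA were mixed in direction. Of 30 in the list, all tested, 3 were higher in SAS and 3 in ANT (6 of 30 called, against 37.4% over all genes), with a median log2 fold change of -0.02. Slbp, which encodes the stem-loop binding protein, stood at 62.5, 52.2, 44.7 and 46.7 CPM in ANT and at 75.9, 60.8, 69.8 and 62.5 CPM in SAS. It was higher in SAS (0.38, SE 0.13, edgeR adjusted p 0.038), although ANT replicate 1 overlapped the SAS range. Zfp473, a zinc finger protein of the U7 processing complex, was also higher in SAS (0.89, adjusted p 0.0321), as was the cleavage factor Cstf3 (0.27, adjusted p 0.0394). Tut4, a uridylyltransferase (-0.47, adjusted p 0.0233), Clp1 (-0.58, 0.0261) and Cstf2t (-0.38, 0.0332), both of the cleavage machinery, were higher in ANT. These calls were close to the threshold. Slbp missed it in 6 of the 8 fits that left out 1 library (adjusted p 0.0557 to 0.111, all but those without ANT replicate 1 or SAS replicate 2), Cstf3 in 7, Zfp473 in 6, Clp1 and Cstf2t in 5 each, and Tut4 without SAS replicate 3 or 6. The list held 2 calls without ANT replicate 1, 1 without ANT replicate 3, 3 without ANT replicate 4, 3 without SAS replicate 1, 1 without SAS replicate 3 and 0 without SAS replicate 6 (8 of the 30 were under an unadjusted p of 0.05 with all libraries). Npat, the coactivator of clustered histone transcription, stood at 58.8 ± 13.0 CPM in ANT and 54.5 ± 4.46 in SAS (-0.11, adjusted p 0.612), and its partner Casp8ap2 at 104 ± 15.3 and 85.2 ± 11.8 (-0.28, adjusted p 0.134).

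Histone chaperones, which escort histones to DNA, had 5 of 32 genes higher in SAS and 2 in ANT (21.9% called, against 37.4% over all genes, where 19.8% were higher in SAS), with a median log2 fold change of 0.18. Without SAS replicate 6 there were 4 calls in place of 7. Chaf1a, the large subunit of the chaperone that deposits H3 and H4 behind the replication fork, stood at 1.21, 1.03, 0.576 and 0.723 CPM in ANT and at 7.85, 8.79, 9.24 and 8.12 CPM in SAS. SAS was higher in every library (3.26, SE 0.24, edgeR adjusted p 4.05e-06). Ipo4, which imports H3 and H4 (0.99, adjusted p 0.00174), Set (0.72, 0.00375) and Znhit1 of the complex that deposits H2A.Z (0.54, 0.0208) were also higher in SAS. Daxx, a chaperone of H3.3 (-0.45, adjusted p 0.0104), and Tonsl, a reader of newly made H4 (-0.57, 0.0282), were higher in ANT. The Znhit1 and Tonsl calls were lost in 5 fits each that left out 1 library, with adjusted p of 0.0507 to 0.0621 (ANT replicates 1, 3 or 5, SAS replicates 1 or 6) and 0.0522 to 0.0829 (ANT replicates 1 or 3, SAS replicates 2, 3 or 6).

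Cell cycle genes went the other way from the clustered histone genes as counted here. The libraries were made with an mRNA kit, so the clustered counts need not follow the replication-dependent message, which lacks a poly(A) tail. Of 35 S phase genes 26 were higher in SAS and 0 in ANT (74.3% called, against 37.4% over all genes), and of 22 mitosis genes 17 and 0 (77.3%). The medians of their log2 fold changes were 0.78 and 2.08. Mki67, a marker of cycling cells, stood at 1.55, 1.03, 1.08 and 1.55 CPM in ANT and at 22.6, 31.7, 50.5 and 9.37 CPM in SAS (4.45, SE 0.48, edgeR adjusted p 5.24e-05). SAS libraries spread widely, and replicates 3 and 6 were at the ends. Top2a stood at 4.21 ± 1.5 CPM in ANT and 25.8 ± 10.3 in SAS (2.61, adjusted p 0.000141) and Tk1 at 0.354 ± 0.0303 and 5.0 ± 0.689 (3.80, adjusted p 1.17e-06). The replication helicase subunit Mcm2 was higher by less (0.41, adjusted p 0.00858), and the sliding clamp Pcna was not called (-0.09, adjusted p 0.557). The mitosis list summed to 70.2 to 76.3 CPM in ANT and 118 to 248 CPM in SAS, in which 0 of the 20 tested clustered histone genes were called higher. That contrast is between the clones. Within SAS, Hist1h1c was highest in replicate 3 and lowest in replicate 6, as Mki67 was. The summed clustered level in SAS was highest in replicate 3 (47.6 CPM) and lowest in replicate 1 (31.3 CPM). The relation between the cell cycle values and the histone values was not tested.

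**Figure D5:**
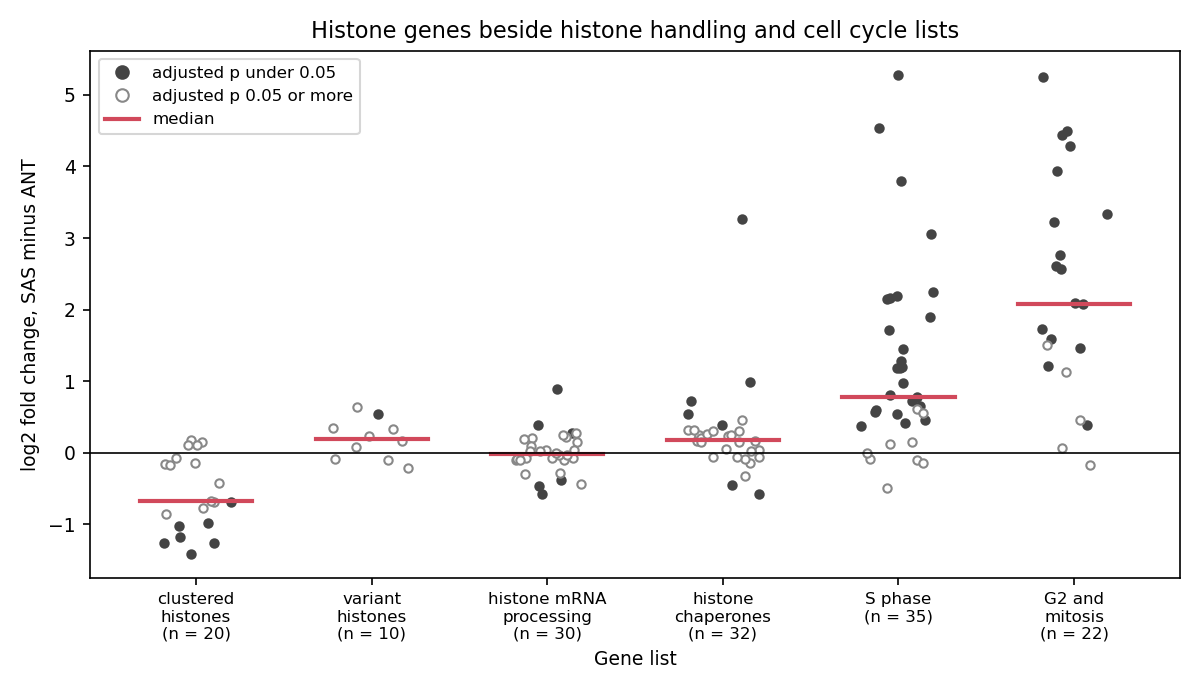
Log2 fold change, SAS minus ANT (vertical axis), of each tested gene of the clustered histone, variant histone, histone mRNA processing, chaperone, S phase and mitosis lists (columns); points are genes, filled where the edgeR adjusted p was under 0.05, and bars are list medians. Medians run from -0.68 for clustered histone genes to 2.08 for mitosis genes.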

How the data were processed

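RNA-seq libraries of sorted CD4+ T cells (4 ANT, 4 SAS) were analysed from the 1 table of raw counts per gene that the authors deposited, in whole numbers. Per the submitters' processing notes, the authors used STAR, featureCounts and the build mm10. Tool versions, annotation, strand setting and the handling of multi-mapped reads are not given in the sources used here. Reads shared by near-identical histone genes, or by overlapping genes, may therefore be lost or split.

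Gene IDs without version were matched to GENCODE M21 (38872 of 39056), which gave symbols, coordinates, exon lengths and transcripts. Groups and replicate numbers come from the sample labels. edgeR 4.0.16 (R 4.3.3) was fitted on all 8 libraries without covariates: filterByExpr, TMM scaling, robust quasi-likelihood test, Benjamini-Hochberg adjustment over 12619 genes, calls at an adjusted p under 0.05. SE is the absolute log2 fold change over the square root of F. CPM uses the TMM-scaled library size, and CPM per kb divides by the union of annotated exons. The script was tested on simulated data. No 2 replicates agreed within sampling noise.

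Values per library are given for the tested variant genes, the called clustered genes and the 8 most abundant clustered genes. From the other lists the rule takes Slbp, Npat and Casp8ap2, the 4 processing and chaperone genes with the smallest p in each direction, the 4 such S phase and mitosis genes, and Mki67, Top2a, Pcna and Mcm2. Not all are printed, and 1 marker of another cell type is not reported here. Members, lists and the split of ANT libraries were chosen with earlier results of these data known. Alternatives were other scalings and low-count filters, DESeq2 1.42.0, limma-voom (limma 3.58.1), leaving out libraries, a replicate block, a test against a fold change of 1.5 and an adjusted p under 0.01.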

Additional observations from a re-analysis of the deposited data

Results flagged for a closer look

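In 5 of the 122 groups of 4 libraries checked, 1 library stood apart from the other 3 by more than Dixon's 95% limit. Chance flags about 1 in 20 groups. H2afj was at 45.8 CPM in ANT replicate 4, with the other ANT libraries at 30.2 to 32.3. H2afv was at 36.4 CPM in SAS replicate 3, with the others at 26.4 to 27.5. Hist4h4 was at 0.546 CPM in SAS replicate 6, with the others at 0.345 to 0.365. Outside the histone genes, Ctr9, a subunit of the transcription elongation complex PAF, was at 75.2 CPM in ANT replicate 5 (the others at 70.6 to 71.3), and Uhrf1, which maintains DNA methylation at replication, was at 3.85 CPM in ANT replicate 4 (the others at 4.93 to 5.07).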

How the results depend on the processing

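Against a fold change of 1.5 there were 1836 calls over all genes, 1 clustered and 0 variant, and at an adjusted p under 0.01 there were 3044 and 2 clustered. Clustered calls were 4 without ANT replicates 4 and 5 and 3 without ANT replicates 1 and 3, and 6 to 8 when 1 library was left out (all genes 3964 to 4700). Variant calls were 2 without SAS replicate 3 (H2afj added), without ANT replicates 4 and 5 (H2afx added) and without ANT replicates 1 and 3 (H3f3a added), and 1 to 2 over all leave-one-out fits. Leave-one-out calls were 0 to 6 for the processing list and 4 to 8 for the chaperones, 22 to 27 for S phase and 15 to 18 for mitosis.

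The labels do not say that a replicate number pairs samples. Only numbers 1 and 3 occur in both clones, and same-numbered deviations correlated at 0.293 and -0.121. With the replicate block there were 5798 calls over all genes, 6 clustered (Hist3h2a and Hist2h4 lost, with adjusted p of 0.0555 and 0.0596, Hist3h2ba added, 0.0213) and 2 variant (H2afx added, at 1.55), and the log2 fold change changed sign for H2afj (0.052), H3f3b (0.041), H1f0 (-0.061), H3f3a-ps2 (0.18), Ubn1 (0.042) and Pcna (0.00034). That fit rests on the shared numbers alone, since the other libraries each have a number of their own.

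Other sign changes were of genes that were not called. With library totals only H3f3a-ps2 was at 0.0059 and Pcna at 0.0019. Leaving out 1 library moved H2afv from -0.051 to 0.14, H3f3a-ps2 from -0.30 to 0.17, Hist1h2bc from -0.14 to 0.45, Hist1h4i from -0.022 to 0.28 and Npat from -0.23 to 0.0054. Without ANT replicates 1 and 3 H2afv was at -0.0083, Hist1h2bc at -0.27 and Npat at 0.18, and without ANT replicates 4 and 5 Hist1h4i was at -0.049 and Ubn1 at 0.083. Of 418 refits of 22 named histone genes, 381 kept direction and side of the threshold. The causes were not tested.

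The 58 untested members had too few counts for the filter. Without it, or with DESeq2, the calls among them were Hist2h2bb (both) and Hist2h3b (DESeq2).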
